A study of Homo sapiens with 4 samples.

Results

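The genes described are 10 that encode the oxidant-responsive transcription factor NRF2 (NFE2L2), its inhibitor KEAP1, and enzymes and carriers of the thioredoxin and glutathione systems. They were chosen by symbol (NFE2L2, KEAP1, SQSTM1, TXNRD1, TXN, PRDX1, SRXN1, GCLM, GCLC and NQO1), and all 10 were found among the 57820 gene IDs. Their mRNA was measured by RNA sequencing in cultures of MOLM-13, a human cell line from acute myeloid leukaemia. One group of 2 libraries came from cells labelled GADD45g given doxycycline for 4 days at a labelled dose of 1 mg/ml, in a series on overexpression of GADD45G, a stress-inducible regulator of p38 and JNK signalling. The other group of 2 libraries came from untreated control cells. The design text speaks of 2 biological replicate experiments. Doxycycline and the induced gene differed together between the groups and cannot be told apart, and cells with doxycycline but no construct were not analysed here. The promoter of the construct, and whether the cells were a clone, were not given in the sources used here.

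NRF2 is made continuously and is held at a low level by KEAP1, an adaptor that brings it to a CUL3 and RBX1 ubiquitin ligase for destruction. Oxidants and electrophiles modify KEAP1, NRF2 then builds up, pairs with a small MAF protein and binds antioxidant response elements, the DNA sites through which it raises genes of the thioredoxin and glutathione systems. SQSTM1 (p62), an autophagy receptor, can sequester KEAP1 and is itself an NRF2 target. Because NRF2 is set mainly by protein stability, its mRNA need not follow its activity.

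SQSTM1 and TXNRD1 rose more than 4-fold after GADD45G induction, and NQO1 and NFE2L2 rose less. TXN, PRDX1, KEAP1, GCLM and GCLC did not pass the test, and SRXN1 could not be tested over all libraries. Values are RPKM, which divide reads by the length of the gene and the depth of the library. Orders and ratios between different genes therefore rest on the gene lengths used, while the change of a ratio between groups does not. Changes are GADD45g minus control on the log2(RPKM + 1) scale, tested with limma over the 10771 genes that averaged 1 RPKM or more, at a Benjamini-Hochberg adjusted p under 0.05. Of the 9 members tested, 4 rose and 0 fell. At an unadjusted p under 0.05, limma gave 1 lower member, GCLC, which was also the 1 lower call of voom on recovered reads. Over all tested genes 12.2% were called higher and 26.7% lower, 38.9% together (1314 and 2871 genes, or 1917 and 2045 after TMM scaling). The median log2 change was 0.38 over the 9 members and -0.21 over all tested genes. Both GADD45g values lay above both controls for 4 of the 9 members, where 24.1% of all tested genes did so, and below both for 3, where 45.8% did so. After TMM scaling, which moved the median of all genes by 0.22, 4 members were still called higher and 0 lower. RPKM are relative to all reads of a library, so fewer cells of a type and less RNA per cell cannot be told apart.

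**Figure D1:**
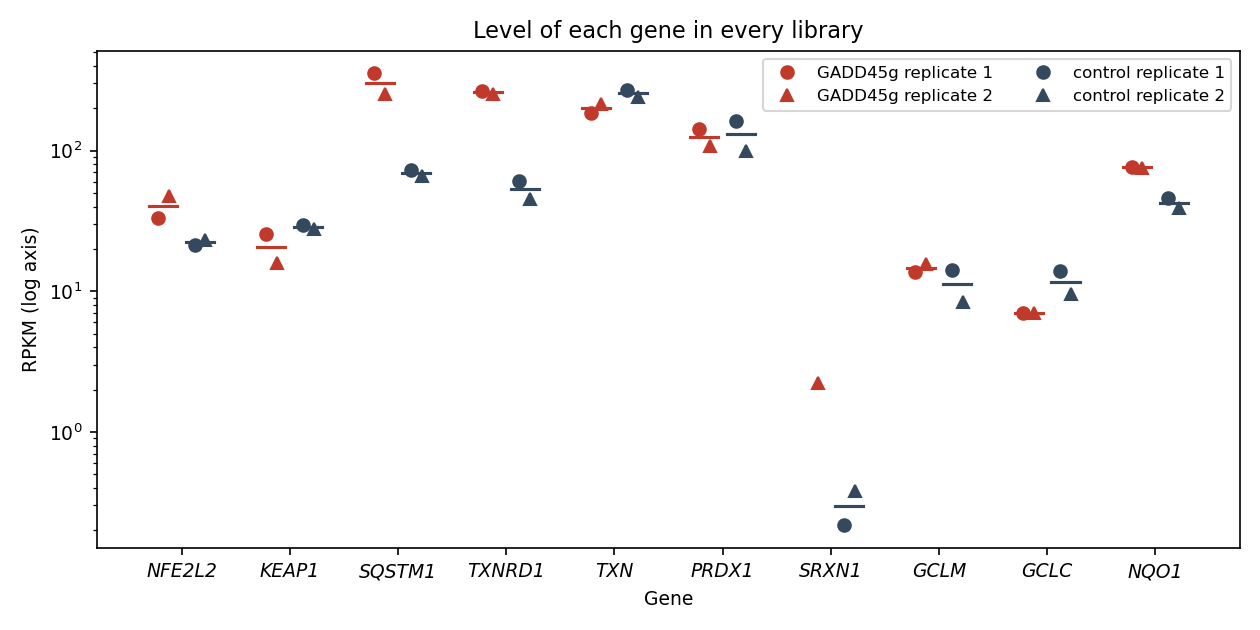
RPKM (log axis) of the 10 genes in each library, with GADD45g libraries in red and untreated controls in dark blue, circles for replicate 1 and triangles for replicate 2, and bars for the mean of 2 libraries. SQSTM1 and TXNRD1 lie between 252 and 354 RPKM in GADD45g libraries, against 45.5 to 72.9 RPKM in controls, while the groups of GCLM and PRDX1 overlap; SRXN1 has no value for GADD45g replicate 1.

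The libraries held 18895470 and 15968886 reads for GADD45g replicates 1 and 2, and 18778791 and 15683931 reads for control replicates 1 and 2, as recovered from the RPKM steps. GADD45G itself stood at 3236 and 2118 RPKM in GADD45g libraries, against 10.5 and 0.289 RPKM in controls. The file of GADD45g replicate 1, as used here, ends after 27332 IDs, and of the 10 genes only SRXN1 is not listed in it. Epithelial markers set both replicate 1 libraries apart: the 10 markers summed to 43.2 RPKM in GADD45g replicate 1 and 44.0 RPKM in control replicate 1. In the replicate 2 libraries they summed to 0.669 RPKM (GADD45g) and 1.01 RPKM (control), with EPCAM and KRT19 at 0 in both. Fibroblast markers summed to at most 0.557 RPKM and erythroid markers to at most 1.15 RPKM in any library. The 10 myeloid markers summed to 500.1 and 457 RPKM in GADD45g libraries and 1320 and 1065 RPKM in controls, mostly through LYZ (CEBPA is not listed for GADD45g replicate 1). The 6 lymphoid markers summed to 154 and 136 RPKM in GADD45g libraries and 327 and 345 RPKM in controls, almost all NKG7. Some other myeloid markers lay above both controls: the integrin gene ITGAM was at 21.2 and 17.6 RPKM in GADD45g libraries, against 8.89 and 12.9 RPKM in controls (limma adjusted p = 0.0268). ANPEP (94.5 and 95.1 RPKM, against 45.5 and 81.2 RPKM in controls) and SPI1, a myeloid transcription factor (101.4 and 83.99 RPKM, against 68.7 and 74.7 RPKM in controls), did not pass the test. CD14 was at 1.37 and 1.49 RPKM in GADD45g libraries, against 0.565 and 0.541 RPKM in controls, under the filter. MPO was at most 0.278 RPKM, and FLT3, at 0.0889 and 0.0451 RPKM in GADD45g libraries, reached 0.958 and 1.19 RPKM in controls. CD33 lay below both controls, at 12.5 and 13.7 RPKM in GADD45g libraries, against 17.6 and 21.5 RPKM in controls. It did not pass the test (limma adjusted p = 0.0864). CEBPA was at 0.643 RPKM in GADD45g replicate 2, against 3.36 and 3.54 RPKM in controls. CSF1R overlapped, at 0.976 and 1.51 RPKM in GADD45g libraries, against 0.941 and 1.44 RPKM in controls.

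The 250 bases upstream of the annotated starts of the genes (RefSeq, GRCh38.p14; a build other than the hg19 of the files) are shown for TXNRD1, SQSTM1 and NQO1, which rose, and for GCLM, which did not pass the test. They were searched on both strands for the core of the antioxidant response element, TGACNNNGC, and for the AP-1 site TGANTCA. Capitals mark the antioxidant response element core, which reads in reverse in GCLM.
TXNRD1, chr12:104215529-104215778, + strand: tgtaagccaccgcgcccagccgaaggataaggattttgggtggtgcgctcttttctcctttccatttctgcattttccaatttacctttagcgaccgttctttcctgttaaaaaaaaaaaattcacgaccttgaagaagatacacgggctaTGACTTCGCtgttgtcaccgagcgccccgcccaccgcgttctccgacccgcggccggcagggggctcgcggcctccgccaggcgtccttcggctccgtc
SQSTM1, chr5:179806143-179806392, + strand: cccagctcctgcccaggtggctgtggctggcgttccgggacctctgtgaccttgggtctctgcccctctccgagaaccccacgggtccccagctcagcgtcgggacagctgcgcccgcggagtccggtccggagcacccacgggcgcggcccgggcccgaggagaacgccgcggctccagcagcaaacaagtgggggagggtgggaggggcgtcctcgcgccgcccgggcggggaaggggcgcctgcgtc
NQO1, chr16:69726561-69726810, - strand: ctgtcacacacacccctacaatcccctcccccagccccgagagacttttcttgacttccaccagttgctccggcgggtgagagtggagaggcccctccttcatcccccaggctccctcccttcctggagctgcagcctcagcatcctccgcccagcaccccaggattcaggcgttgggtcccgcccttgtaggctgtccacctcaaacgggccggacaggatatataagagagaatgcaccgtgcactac
GCLM, chr1:93909431-93909680, - strand: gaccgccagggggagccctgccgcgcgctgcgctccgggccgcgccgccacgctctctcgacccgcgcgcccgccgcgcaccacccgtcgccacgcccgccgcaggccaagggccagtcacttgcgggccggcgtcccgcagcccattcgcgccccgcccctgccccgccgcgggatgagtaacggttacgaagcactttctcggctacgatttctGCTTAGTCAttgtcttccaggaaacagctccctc
The TXNRD1 window held 1 match, TGACTTCGC, starting at position -99 from the gene start, and its alternative start had 1 on the reverse strand, TGACAAAGC, at -102. GCLM had 1, TGACTAAGC, on the reverse strand at -34. No window of SQSTM1 or NQO1 held the core. Windows were found for 9 of the 10 genes, 14 windows in all counting alternative starts, and PRDX1 was not in the table. The core stood in 4 of the 14, those of TXNRD1, GCLM and 1 of the KEAP1 starts, and in 10.9% of all 35116 windows of this length. The AP-1 letters were in none of the 14 and in 6.57% of all windows, so no match overlapped one. The gene that rose most, TXNRD1, and genes that did not pass the test, GCLM and KEAP1, thus hold the core in these windows, and SQSTM1, NQO1 and NFE2L2 do not. Sequence farther upstream or within the genes was not searched. A window without the core therefore does not show that the gene lacks an antioxidant response element.

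The mRNA of NRF2 itself and of its regulators moved unequally. NFE2L2 (ENSG00000116044) stood at 33.0 and 47.3 RPKM in GADD45g libraries, against 21.3 and 23.3 RPKM in controls. Both GADD45g values lay above both controls, but GADD45g replicate 2 was well above replicate 1. The means were 40.1 ± 10.1 and 22.3 ± 1.43 RPKM (SD, n = 2 each), a log2 change of 0.80 ± 0.25 (SE; limma adjusted p = 0.0272). The call was lost without GADD45g replicate 2 (log2 change 0.55, limma adjusted p = 0.224), without control replicate 1 (0.120), without control replicate 2 (0.0772) and with no filter on low values (0.101). An antisense gene that shares 3.18% of the NFE2L2 exon length, AC079305.1, was at 27.8 and 34.6 RPKM in GADD45g libraries, against 9.92 and 13.5 RPKM in controls. On the same strand AC019080.1 shares 17.6%, at 0.586 and 0.645 RPKM in GADD45g libraries, against 1.13 and 1.63 RPKM in controls. AGPS, on the opposite strand, shares 0.903%, at 11.1 and 9.32 RPKM in GADD45g libraries, against 29.1 and 17.1 RPKM in controls. How shared reads were counted was not given in the sources used here. KEAP1 (ENSG00000079999), the repressor, was at 25.4 and 15.8 RPKM in GADD45g libraries, against 29.6 and 27.7 RPKM in controls. Its log2 change of -0.49 did not pass the test (limma 95% interval -1.08 to 0.09, adjusted p = 0.163), and it was -0.17 without GADD45g replicate 2 and -0.82 without GADD45g replicate 1. The ratio of NFE2L2 to KEAP1 was 1.30 and 2.999 in GADD45g libraries, against 0.718 and 0.842 in controls. Which gene stood higher rests on the gene lengths used. Before division by length, NFE2L2 already had more reads than KEAP1 in controls (2360 and 2158 reads, against 2094 and 1631).

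SQSTM1 (ENSG00000161011), which encodes the KEAP1-binding autophagy receptor p62, reached 354 and 252 RPKM in GADD45g libraries, against 72.9 and 66.3 RPKM in controls. The groups were far apart, and SQSTM1 had the highest mean of the 10 genes after induction, 303 ± 71.9 RPKM, against 69.6 ± 4.67 RPKM in controls (SD, n = 2 each). The log2 change was 2.09 ± 0.27 (limma adjusted p = 0.000179), which ranked 163 from the highest among the 10771 genes. It stayed between 1.84 and 2.34 under the 13 alternatives, and each of them called it. SQSTM1 overlaps MRNIP on the opposite strand, with 20.7% of the SQSTM1 exon length shared in GENCODE 29, and whether counting used strand was not given in the sources used here. MRNIP moved with it, at 124 and 98.5 RPKM in GADD45g libraries against 25.9 and 23.7 RPKM in controls. With every MRNIP read subtracted from SQSTM1, 29647 and 16384 reads remained in GADD45g libraries, against 6028 and 4548 reads in controls, which is 4.25-fold once scaled to depth, beside 4.35-fold for the full values. The ratio of SQSTM1 to KEAP1 was 13.9 and 16.0 in GADD45g libraries, against 2.46 and 2.40 in controls.

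Among genes of the thioredoxin system the reductase rose while its substrate did not. TXNRD1 (ENSG00000198431), the cytosolic selenoenzyme that reduces thioredoxin with NADPH, was at 265 and 252 RPKM in GADD45g libraries, against 60.8 and 45.5 RPKM in controls. The GADD45g libraries lay close together and far above both controls, with means of 259 ± 8.98 and 53.2 ± 10.8 RPKM (SD, n = 2 each). The log2 change was 2.28 ± 0.26 (limma adjusted p = 8.57e-05), the largest of the 9 tested members, and ranked 134 from the highest among the 10771 genes. It stayed between 2.07 and 2.53 under the 13 alternatives, each of which called it. TXN (ENSG00000136810), thioredoxin itself, had the highest RPKM of the 10 genes in controls. It was at 184 and 214 RPKM in GADD45g libraries, against 271 and 239 RPKM in controls. Its GADD45g values lay below both controls, but the log2 change of -0.36 did not pass the test (limma 95% interval -0.92 to 0.21, adjusted p = 0.299). In RPKM the reductase went past its substrate: the ratio of TXNRD1 to TXN was 1.44 and 1.18 in GADD45g libraries, against 0.224 and 0.191 in controls. Before division by length, TXNRD1 already had more reads than TXN in controls (7639 and 4774 reads, against 5819 and 4272).

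PRDX1 and SRXN1 act downstream of thioredoxin. PRDX1 (ENSG00000117450), a peroxidase that thioredoxin recycles, was at 142 and 108 RPKM in GADD45g libraries, against 161 and 99.3 RPKM in controls. The groups overlapped, and in each group the replicate 1 library was higher, as epithelial markers were; the part of this RNA in the difference was not tested. The log2 change was -0.03 (limma 95% interval -0.69 to 0.62, adjusted p = 0.941), and its sign turned with TMM scaling (0.22), with quantile normalization (0.09), without GADD45g replicate 2 (0.16) and without control replicate 1 (0.31). SRXN1 (ENSG00000271303), sulfiredoxin, which repairs overoxidised peroxiredoxins, was the lowest of the 10 genes. On the same strand the protein-coding gene AL121758.1 shares 84.95% of the SRXN1 exon length. It was at 0.0231 RPKM in GADD45g replicate 2 and 0 RPKM in both controls, and is not listed for GADD45g replicate 1. How shared reads were counted was not given in the sources used here. The effect of this overlap on the level and reads of SRXN1 was not tested. SRXN1 had 2.23 RPKM in GADD45g replicate 2 (96 reads, 95% exact Poisson interval 1.80 to 2.72 RPKM). In controls it had 0.217 RPKM (11 reads, 0.108 to 0.388) and 0.378 RPKM (16 reads, 0.216 to 0.614). The GADD45g interval did not overlap those of the controls, which cover counting error only. In a fit on the 3 complete libraries, added after seeing the data, its log2 change of 1.32 ± 0.31 had an unadjusted p of 0.0126 and did not pass over 16739 genes (limma adjusted p = 0.105), taking the lone GADD45g library to vary like the controls. At this low level the size of the change is set largely by the pseudocount: it was 2.58 with 0.1 and 0.45 with 5 (limma adjusted p = 0.144 and 0.0907), beside a ratio of RPKM of 7.49.

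Neither subunit of glutamate-cysteine ligase, the rate-limiting enzyme of glutathione synthesis, passed the test. GCLC (ENSG00000001084), the catalytic subunit, was at 7.02 and 7.03 RPKM in GADD45g libraries, against 13.8 and 9.49 RPKM in controls. Both GADD45g libraries lay below both controls, with a log2 change of -0.64 ± 0.24 that just missed the threshold (limma adjusted p = 0.0557). It passed when genes under 5 RPKM were left out (0.0321), when the prior was robust (0.0357), with voom on recovered reads (0.0281) and without control replicate 2 (0.0302), and its adjusted p was 0.213 after TMM scaling and 0.231 without control replicate 1. GCLM (ENSG00000023909), the modifier subunit that raises the activity of the catalytic one, was at 13.6 and 15.6 RPKM in GADD45g libraries, against 14.1 and 8.42 RPKM in controls. Control replicate 1 lay between the GADD45g values, and the log2 change of 0.38 did not pass the test (limma 95% interval -0.20 to 0.97, adjusted p = 0.275). It was 0.04 without control replicate 2 and 0.73 without control replicate 1. The ratio of GCLC to GCLM was 0.516 and 0.450 in GADD45g libraries, against 0.979 and 1.13 in controls, and was not tested.

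NQO1 (ENSG00000181019), a quinone reductase often read as a marker of NRF2 activity, was at 76.2 and 75.5 RPKM in GADD45g libraries, against 46.3 and 39.0 RPKM in controls. The GADD45g libraries nearly coincided and lay above both controls, with means of 75.8 ± 0.51 and 42.6 ± 5.11 RPKM (SD, n = 2 each). The log2 change was 0.82 ± 0.24 (limma adjusted p = 0.0189), with adjusted p of 0.0803 without GADD45g replicate 1, 0.0789 without GADD45g replicate 2 and 0.0778 without control replicate 2. The log2 difference was 0.71 between the replicate 1 libraries, which hold the epithelial markers, and 0.93 between the replicate 2 libraries, where EPCAM and KRT19 were at 0. An antisense gene, AC092115.2, lies wholly within NQO1 exons in GENCODE 29, so its reads cannot be told from those of NQO1 unless counting used strand. It was at 42.1 RPKM in GADD45g replicate 2, against 38.1 and 20.96 RPKM in controls, and is not listed for GADD45g replicate 1.

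**Figure D2:**
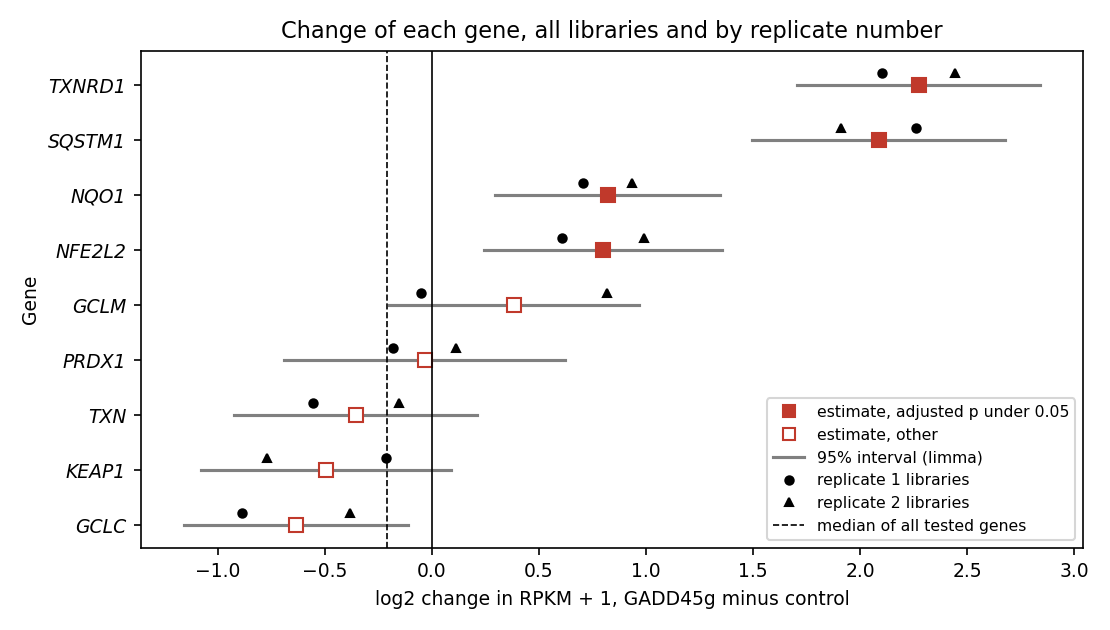
Log2 change in RPKM + 1 (GADD45g minus control) of the 9 tested genes, as the limma estimate with its 95% interval (red squares, filled where adjusted p is under 0.05) and between the libraries of each replicate number (circles and triangles). TXNRD1 and SQSTM1 stand near 2, NQO1 and NFE2L2 near 0.8, and the 5 others have open squares; the dashed line is the median of all tested genes, -0.21.

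Ordered by mean level in GADD45g libraries, the genes ran from SQSTM1 (303 RPKM) and TXNRD1 (259) over TXN (199), PRDX1 (125), NQO1 (75.8), NFE2L2 (40.1), KEAP1 (20.6) and GCLM (14.6) to GCLC (7.02) and SRXN1 (2.23, 1 library). In controls TXN (255 RPKM) and PRDX1 (130) led, followed by SQSTM1 (69.6), TXNRD1 (53.2), NQO1 (42.6), KEAP1 (28.6), NFE2L2 (22.3), GCLC (11.7), GCLM (11.3) and SRXN1 (0.298). Neighbours whose library values overlapped were SQSTM1 and TXNRD1 in GADD45g libraries, and TXNRD1 and NQO1, and GCLC and GCLM, in controls. TXNRD1 stood above 99.2% and 99.3% of tested genes in GADD45g libraries, against 94.7% and 92.7% in controls.

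**Figure D3:**
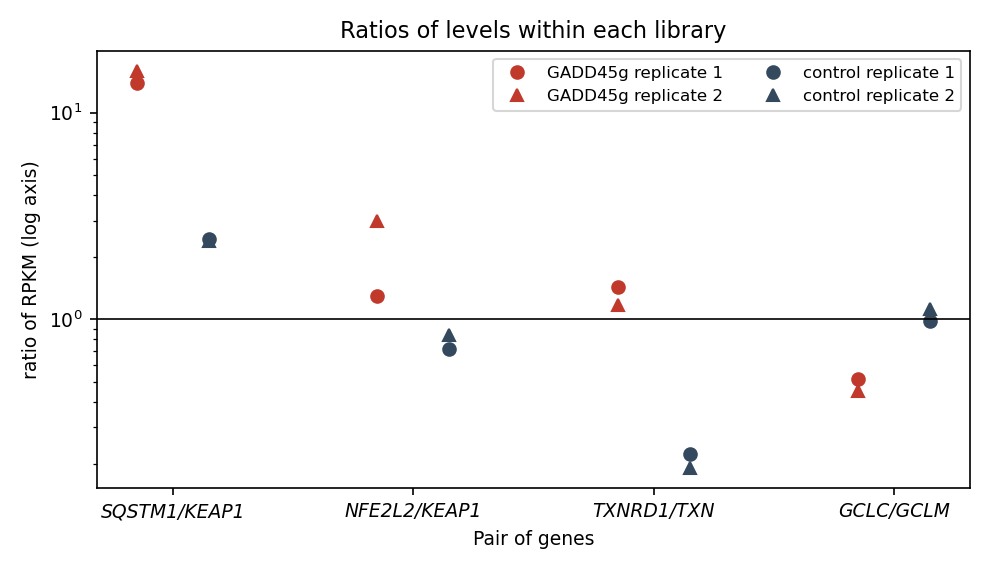
Ratios of RPKM of 4 gene pairs within each library (log axis), GADD45g in red and controls in dark blue, circles for replicate 1 and triangles for replicate 2. TXNRD1/TXN lies above 1 in both GADD45g libraries and at 0.224 and 0.191 in controls, and GCLC/GCLM is 0.516 and 0.450 in GADD45g libraries, against 0.979 and 1.13 in controls.

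Of 97 further genes of these pathways, in 5 lists, 77 were tested. Of these 16 rose (20.8%) and 25 fell (32.5%), beside 12.2% and 26.7% of all tested genes. After TMM scaling the split was 24 higher and 17 lower, beside 1917 higher and 2045 lower of all 10771 tested genes. In these lists the excess of lower calls thus depended on the scaling, and over all tested genes it shrank. Of the genes not tested, 15 were under the filter, 3 were not listed in the file of GADD45g replicate 1 and 2 were not matched. The lists differed in their counts, and the differences between lists were not tested.

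Among 10 tested partners and regulators of NRF2, 5 rose (50%) and 2 fell (20%), beside 12.2% and 26.7% of all tested genes. The median log2 change was 0.59. MAFF, a small MAF protein that pairs with NRF2 or BACH1, was at 39.0 and 24.5 RPKM in GADD45g libraries, against 5.21 and 4.65 RPKM in controls (log2 change 2.43, limma adjusted p = 5.77e-05). BACH1, a repressor that competes with NRF2 for the same DNA sites, was at 35.4 and 39.7 RPKM in GADD45g libraries, against 19.1 and 16.3 RPKM in controls (1.05, limma adjusted p = 0.00453). Activator and repressor messages thus both rose, and the ratio of BACH1 to NFE2L2 was 1.08 and 0.839 in GADD45g libraries, against 0.898 and 0.698 in controls. MAFK, another small MAF, had a log2 change of 0.88, with a call lost with no filter on low values (limma adjusted p = 0.0879). Its call was also lost without GADD45g replicate 1 (log2 change 0.70) and without control replicate 1 (0.81). NFE2L1, a relative of NRF2, had a change of 0.71, with adjusted p of 0.120, 0.136 and 0.140 without GADD45g replicate 1, GADD45g replicate 2 and control replicate 1. MAFG, at 49.7 and 36.2 RPKM in GADD45g libraries against 31.5 and 29.3 RPKM in controls, did not pass the test (0.159) but did after TMM scaling (0.0396). CUL3, the scaffold of the KEAP1 ligase, was at 6.35 and 7.41 RPKM in GADD45g libraries, against 6.82 and 6.36 RPKM in controls. RBX1, the RING subunit of that ligase, and PALB2, a DNA repair protein that binds KEAP1, were called lower (log2 changes -0.90 and -0.68), calls that did not hold after TMM scaling (limma adjusted p = 0.0528 and 0.119). Leaving out 1 library gave RBX1 adjusted p of 0.0885 without GADD45g replicate 1, 0.131 without GADD45g replicate 2 and 0.104 without control replicate 1. PALB2 had 0.171 and 0.104 without GADD45g replicates 1 and 2, and 0.0581 and 0.0748 without control replicates 1 and 2.

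Among 18 other tested genes of the thioredoxin and peroxiredoxin system, 1 rose (5.56%) and 7 fell (38.9%), beside 12.2% and 26.7% of all tested genes. The median log2 change was -0.47. TXNRD3, a thioredoxin reductase best known from testis, was at 1.26 and 0.789 RPKM in GADD45g libraries, against 5.05 and 4.34 RPKM in controls (log2 change -1.50, limma adjusted p = 0.000511). PRDX3, the mitochondrial peroxiredoxin, was at 19.3 and 17.9 RPKM in GADD45g libraries, against 59.4 and 45.8 RPKM in controls (-1.44, limma adjusted p = 0.00092). The methionine sulfoxide reductases MSRB3, MSRB1 and MSRA, which use thioredoxin to repair oxidised protein, fell by 2.22, 1.37 and 1.13 on the log2 scale. SESN2, a stress-induced sestrin that promotes KEAP1 breakdown, rose to 10.7 and 10.6 RPKM in GADD45g libraries, against 3.07 and 3.05 RPKM in controls (log2 change 1.52, limma adjusted p = 0.000282).

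Among 22 other tested glutathione genes, 3 rose (13.6%) and 7 fell (31.8%), near the 12.2% and 26.7% of all tested genes. The median log2 change was 0.03. The cystine carrier rose: SLC7A11, its transport subunit, was at 83.7 and 75.7 RPKM in GADD45g libraries, against 24.9 and 13.9 RPKM in controls (log2 change 2.04, limma adjusted p = 0.000327). SLC3A2, its partner chain, was at 84.0 and 55.3 RPKM in GADD45g libraries, against 26.3 and 22.03 RPKM in controls (1.47, limma adjusted p = 0.00154). GLRX, a glutaredoxin that removes glutathione from proteins, had a log2 change of 1.17. The transferase GSTP1 was at 66.5 and 51.6 RPKM in GADD45g libraries, against 196 and 193 RPKM in controls (-1.71, limma adjusted p = 0.000428), and MGST2, a microsomal transferase, fell by 1.23 on the log2 scale. GGCT, which breaks down gamma-glutamyl peptides, was 4.72-fold lower in GADD45g libraries. GSR, glutathione reductase, was at 91.9 and 84.8 RPKM in GADD45g libraries, against 86.5 and 82.7 RPKM in controls, overlapping (log2 change 0.06, limma adjusted p = 0.863).

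Among 10 tested genes of the list on NADPH supply and linked steps, 1 rose (10%) and 5 fell (50%), beside 12.2% and 26.7% of all tested genes. NNT, the mitochondrial transhydrogenase, was at 7.92 and 7.39 RPKM in GADD45g libraries, against 27.8 and 24.6 RPKM in controls (log2 change -1.65, limma adjusted p = 0.000236). The isocitrate dehydrogenases IDH2 (mitochondrial) and IDH1 (cytosolic) fell by 1.41 and 1.15 on the log2 scale. ME2, a mitochondrial malic enzyme, and PGLS, a pentose phosphate enzyme, had log2 changes of -0.82 and -0.80 and were not called after TMM scaling (limma adjusted p = 0.0770 and 0.0758). Without GADD45g replicate 1, GADD45g replicate 2 and control replicate 1, ME2 had adjusted p of 0.103, 0.0554 and 0.0693. PGLS had 0.0736, 0.110 and 0.0821 without GADD45g replicate 1, GADD45g replicate 2 and control replicate 2.

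Among 17 tested genes of the remaining NRF2 target list, 6 rose (35.3%) and 4 fell (23.5%), beside 12.2% and 26.7% of all tested genes. The median log2 change was 0.40. AKR1C1, an aldo-keto reductase, was at 20.7 and 18.0 RPKM in GADD45g libraries, against 0.175 and 0.108 RPKM in controls (31 and 16 reads), a log2 change of 4.15 (limma adjusted p = 5.97e-07); its near-identical relatives make the split of reads uncertain. FTH1, the ferritin heavy chain, was at 5671 and 6969 RPKM in GADD45g libraries, against 925 and 1088 RPKM in controls, and HMOX1, heme oxygenase 1, at 18.3 and 17.9 RPKM in GADD45g libraries against 5.47 and 6.79 RPKM in controls. FTH1 has many processed pseudogenes, and its call was lost with no filter on low values (limma adjusted p = 0.124). ABHD4, a lipid hydrolase, and AKR1C3 had log2 changes of 1.56 and 1.16. ABCC4, an efflux pump, was at 0.800 and 0.590 RPKM in GADD45g libraries, against 6.33 and 6.13 RPKM in controls (-2.10, limma adjusted p = 4.61e-05). Sizes at these low levels depend on the pseudocount, though the calls held. With pseudocounts of 0.1 and 5, the log2 change was 6.34 and 2.24 for AKR1C1, 2.21 and 0.40 for AKR1C3, and -3.01 and -0.98 for ABCC4. With voom it was 7.07, 2.46 and -3.16.

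**Figure D4:**
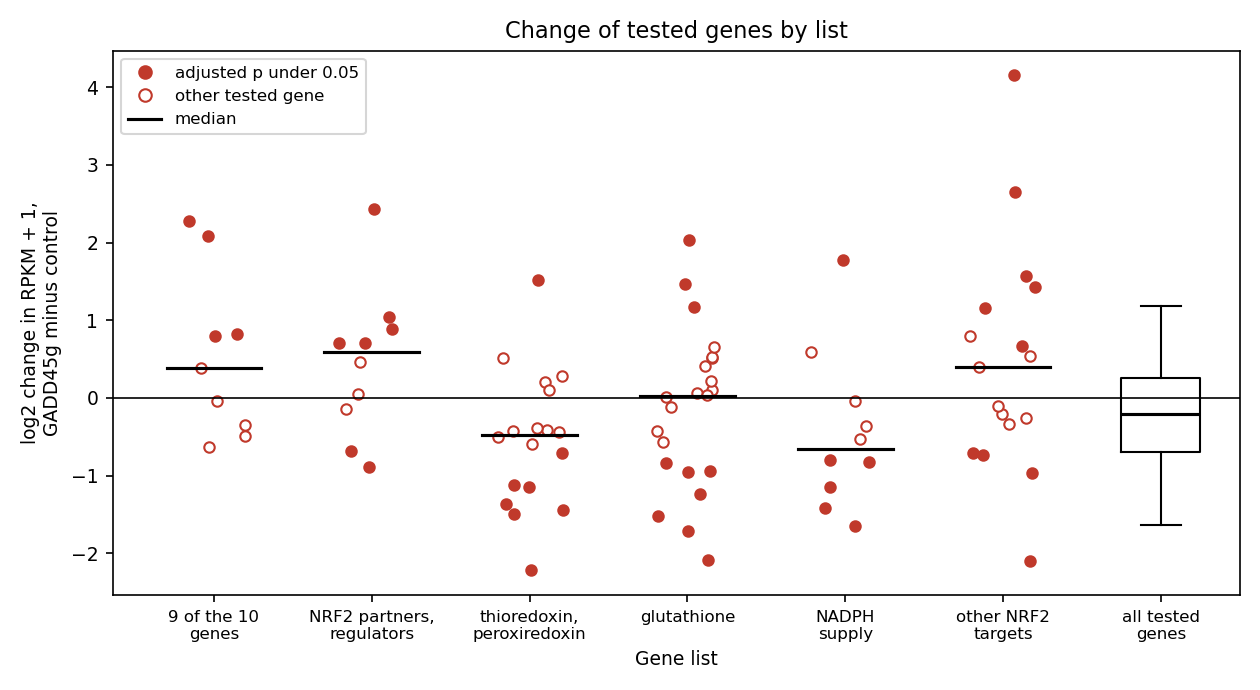
Log2 change in RPKM + 1 (GADD45g minus control) of tested genes by list, filled where adjusted p is under 0.05, with the list median as a bar; the box gives the quartiles and the whiskers the 5th and 95th percentiles of all tested genes. Medians run from -0.66 for NADPH supply to 0.59 for NRF2 partners and regulators, beside -0.21 for all tested genes.

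**Figure D5:**
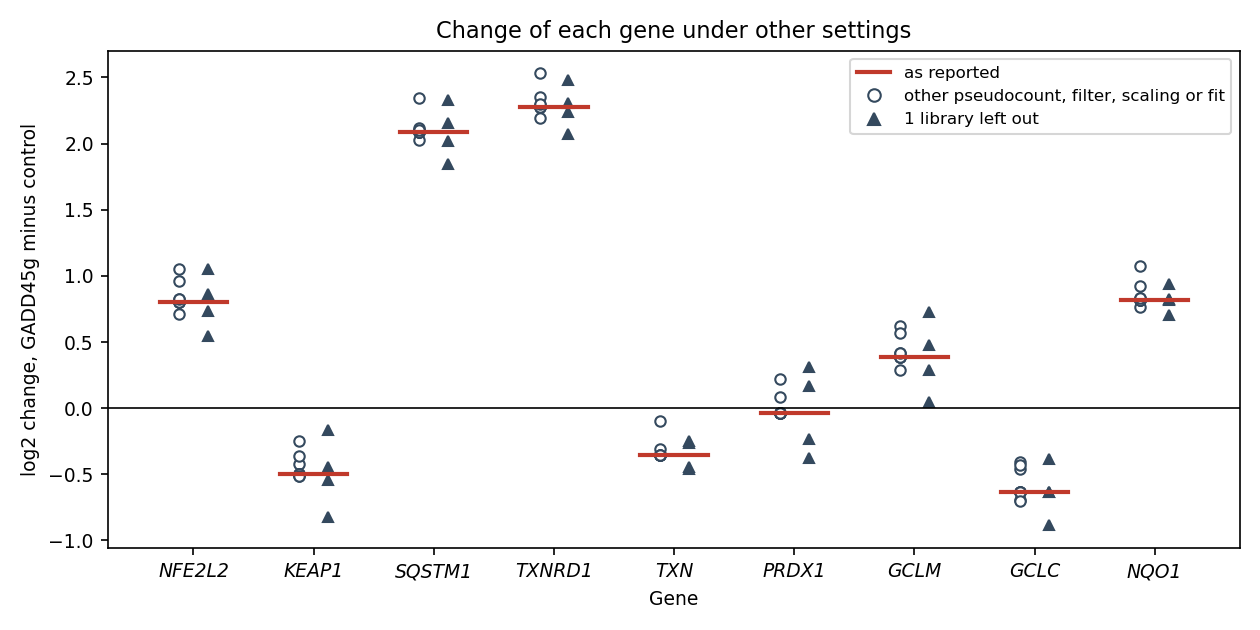
Log2 change of the 9 tested genes as reported (red bars), under other pseudocounts, filters, scalings or fits (open circles) and with 1 library left out (triangles). TXNRD1 stays between 2.07 and 2.53 and SQSTM1 between 1.84 and 2.34, while PRDX1 lies on both sides of 0, from -0.38 to 0.31.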

How the data were processed

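Total RNA from 4 cultures of MOLM-13 cells was isolated with a column kit and sequenced after standard Illumina library preparation, per the labels' protocols; the strand and length of the reads were not given in the sources used here. The authors deposited RPKM values, 1 per Ensembl gene ID and library, per the file headers. TopHat, Cuffnorm, Cuffdiff and the build hg19 stand in the submitters' processing notes, with neither version nor role. Groups were taken from the titles, and libraries without the title suffix were numbered replicate 1. P-values rest on the spread between these libraries, which limma draws, gene by gene, towards that of other genes of like level.

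IDs were paired with symbols through a table of gene names (51996 of 57820). Rows listed in all 4 files were summed per symbol. The 10771 genes averaging 1 RPKM or more were kept, and log2(RPKM + 1) was compared with limma 3.58.1 in R 4.3.3 (lmFit, eBayes with trend), as a two-sided test; the pseudocount understates the change of genes at low RPKM, and p-values were adjusted by Benjamini and Hochberg across the 10771 genes. Residual degrees of freedom were 2, and the median prior degrees of freedom, taken from all tested genes, were 8.72. Most of the weight in each variance thus came from other genes. Low values fell on whole reads to within 0.01 reads (100% in each library), so depths and reads were recovered. For a 1 kb gene, 1 read equalled 0.0529, 0.0626, 0.0533 and 0.0638 RPKM in GADD45g replicates 1 and 2 and control replicates 1 and 2. Poisson intervals cover counting error only. The fit was also run on values simulated with independent noise from its own variance prior. That run checks the code and gives no support to the calls.

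The 10 members and the pathway and marker lists were chosen with earlier results of these data known. All members are named, with up to 6 genes of each list by smallest adjusted p and 8 fixed regulators. TXNIP, one of these, was not matched. One gene that the rule names is not reported here. Alternatives were pseudocounts of 0.1 and 5, no filter, a filter at 5 RPKM, TMM and quantile scaling, a robust prior, a replicate block, voom on recovered reads, and each library left out. Overlaps between genes were computed from the exon positions and strands of GENCODE 29, of another build. The shares of exon length therefore rest on its exon models.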

Additional observations from a re-analysis of the deposited data

How the results depend on the processing

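TXNRD1 and SQSTM1 kept their direction and their call under all 13 alternatives, and so did, in every alternative run, 23 of the 30 named pathway genes that were called (6 of the 33 named have no value with the filter at 5 RPKM, which leaves them out). The calls over all genes numbered 4185, and 2462 with no filter on low values. Leaving out 1 library gave 2597 to 3582 calls over all genes. It gave 2 to 3 members called higher, against 4 with all libraries, and 0 to 1 called lower. Members called lower numbered 1 in place of 0 (GCLC) when genes under 5 RPKM were left out, with a robust prior, with voom and with the replicate block. Pathway genes called lower numbered 25, and 15 with no filter; leaving out 1 library gave 16 to 19. PRDX1, never called, turned from -0.03 to 0.22 with TMM and 0.0877 with quantile scaling, and ranged from -0.38 to 0.31 with 1 library left out. CUL3, also never called, turned from 0.05 to -0.0456 without GADD45g replicate 2, and ranged from -0.0456 to 0.148 with 1 library left out. Fits without 1 library held fewer samples, and the fit with no filter held more genes. What caused the differences between fits was not tested. The numbers of the replicates are a title suffix, and nothing in the labels says that they mark a shared culture. Deviations of the same-numbered libraries from their group means correlated across genes, which are not independent replicates (r = 0.35). With the replicate block the calls over all genes numbered 4987, and GCLC was called lower (adjusted p = 0.0252). With 2 libraries a group, the limma intervals of the KEAP1, TXN, GCLM and PRDX1 changes hold 0 and are wide.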
